A study of Mus musculus with 12 samples.

Results

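Plasma membrane amino acid transporters of the liver were examined as a set of 10 genes, *Slc38a2*, *Slc38a3*, *Slc38a4*, *Slc7a2*, *Slc3a1*, *Slc3a2*, *Slc43a1*, *Slc43a2*, *Slc16a10* and *Slc6a9*, chosen by gene symbol from a table of 48795 genes. All 10 had enough counts to be tested, among 13812 genes tested in all. Amino acids cross the hepatocyte membrane through carriers of several families, some driven by the sodium gradient and others by the gradient of the amino acid itself. The liver takes up alanine, glutamine and other gluconeogenic amino acids from portal and arterial blood, degrades them to feed glucose and urea synthesis during fasting, and releases others back to the circulation. Transporters of the SLC7 family work as pairs in which a light chain moves the amino acid and an SLC3 heavy chain (SLC3A1 or SLC3A2) brings it to the membrane, whereas the SLC7A2 type needs no heavy chain.

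RNA was sequenced from whole livers of 12 female mice, 4 months old and kept on normal chow, 3 in each of 4 groups. The *Nts*+/+ groups were fed ad libitum (mice 254, 257 and 323) or deprived of food for 22 h (mice 265, 282 and 322). The *Nts*-/- groups, fed (mice 277, 303 and 319) or deprived of food for the same time (mice 284, 290 and 295), carry by label a whole-body deletion of neurotensin, a gut peptide hormone, and came from crosses of heterozygous parents. *Nts* counts went against the genotype labels: they were 0 in all 6 libraries labelled *Nts*+/+, 46, 40 and 15 in the fed and 12, 4 and 18 in the fasted libraries labelled *Nts*-/-. Why counts occurred only in libraries labelled *Nts*-/- was not tested, and every statement on genotype below therefore concerns the labels. Libraries held 21999647 to 45273069 counts, so that 3 counts equalled 0.0663 to 0.136 CPM (counts scaled to the total of the library). Levels are given as TMM-normalized CPM, which scales each library by its total and by a factor for composition (0.9152 to 1.102 here).

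Summed markers of hepatocytes were similar in all groups, at 116000 to 146000 TMM-normalized CPM per mouse over the 7 of 8 genes in the table, so the labelled tissue matched its markers. Most of that sum was *Alb* (means of 103000 in fed and 106000 in fasted *Nts*+/+ livers). Under it, *Apoa1* was higher after fasting (5860 and 9720 in *Nts*+/+). *Ttr* (6230 and 4020) and *Fgb* (5240 and 3680) were lower, with the same directions in *Nts*-/-. Several other lists moved with fasting, in part through few of their genes. The adipocyte list rose mostly through *Cidec* (means of 0.571 in fed and 50.6 in fasted *Nts*+/+, 0.37 and 54.9 in *Nts*-/-). The intestine list rose mostly through *Fabp2* (64.8 and 127, 51.5 and 183). The pancreas list fell mostly through *Cela1* (12 and 3.43, 9.72 and 4.57). Pericentral hepatocyte markers summed to 7730 to 9270 in fed and 12400 to 16100 in fasted *Nts*+/+ livers, and to 4530 to 7530 and 14800 to 16900 in those labelled *Nts*-/-. That sum rested on *Cyp2e1* (means of 5940 and 11000 in *Nts*+/+) and *Oat* (769 and 2240), whereas *Cyp1a2* was lower after fasting (573 and 216 in *Nts*+/+, 372 and 168 in *Nts*-/-) and *Axin2* near level (11.6 and 11.5, 11.8 and 9.86). Periportal hepatocyte markers overlapped between fed and fasted livers, at 8160 to 11000 and 9780 to 17500 in *Nts*+/+, and 9910 to 11100 and 11000 to 14400 in *Nts*-/-. Cholangiocyte markers summed to 34.0 to 49.9 and 13.8 to 26.2 in *Nts*+/+, and to 33.5 to 35.7 and 15.1 to 29.7 in *Nts*-/-, mostly through *Spp1* (34.5 and 17.3 in *Nts*+/+, 29.2 and 17.4 in *Nts*-/-). *Sox9* was higher after fasting in *Nts*+/+ (2.68 and 3.25) and lower in *Nts*-/- (3.69 and 1.85). Kupffer cell markers summed to 563 to 620 in fed and 277 to 474 in fasted *Nts*+/+ livers, and overlapped in *Nts*-/- (366 to 466 and 358 to 525). Sinusoidal endothelial markers were at 190 to 277 and 167 to 181 in *Nts*+/+ and 222 to 244 and 163 to 197 in *Nts*-/-, and stellate cell markers at 227 to 252 and 186 to 211, and 195 to 275 and 190 to 203. The part of these shifts in the transporter results was not tested, and in whole liver fewer cells of a type cannot be told apart from less RNA per cell.

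The SLC38 genes encode sodium-coupled carriers of small neutral amino acids. *Slc38a4* (GRCm38 chr15:96994823-97055956) encodes the liver's main System A carrier, and *Slc38a3* (chr9:107650634-107669530) a System N carrier of glutamine, histidine and asparagine that can run in both directions. *Slc38a2* (chr15:96687394-96699698) encodes a widely expressed System A carrier known for its induction by amino acid shortage. *Slc7a2* (chr8:40862396-40922308) encodes a carrier of arginine, lysine and ornithine. *Slc3a1* (chr17:85028347-85064243) and *Slc3a2* (chr19:8706882-8723369) encode the heavy chains. *Slc16a10* (chr10:40033535-40142254) encodes a facilitator of aromatic amino acids, *Slc43a1* (chr2:84838850-84863594) and *Slc43a2* (chr11:75531694-75577575) encode facilitators of branched-chain amino acids and phenylalanine, and *Slc6a9* (chr4:117834506-117875198) encodes a glycine transporter.

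The 250 bases before a RefSeq transcription start (GRCm38.p6) were read for 8 of the 10 genes, in 13 windows. *Slc38a3* and *Slc7a2* had no entry in the table used. The window of *Slc16a10* and 2 of the 3 windows of *Slc38a4*, whose transcripts rose on fasting in *Nts*+/+ livers, and of *Slc3a1*, whose transcript fell, are printed 5′ to 3′ to show the sequence next to the starts of the responding genes. The *Slc38a4* window between them (chr15:97031214-97031463, GC content 46.0%, no motif match) is not printed. Capitals mark the only motif match in these 4 windows.
Slc16a10 (chr10:40142255-40142504, minus strand): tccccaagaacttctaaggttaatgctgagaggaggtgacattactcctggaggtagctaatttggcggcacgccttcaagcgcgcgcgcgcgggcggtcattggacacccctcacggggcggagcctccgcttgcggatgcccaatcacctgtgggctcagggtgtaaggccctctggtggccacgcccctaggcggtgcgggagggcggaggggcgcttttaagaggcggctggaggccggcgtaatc
Slc38a4, upstream start (chr15:97055957-97056206, minus strand): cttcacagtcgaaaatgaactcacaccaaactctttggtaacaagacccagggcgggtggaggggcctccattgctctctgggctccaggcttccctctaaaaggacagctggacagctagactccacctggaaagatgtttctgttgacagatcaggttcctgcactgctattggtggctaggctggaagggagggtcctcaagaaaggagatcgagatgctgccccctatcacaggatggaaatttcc
Slc38a4, downstream start (chr15:97020360-97020609, minus strand): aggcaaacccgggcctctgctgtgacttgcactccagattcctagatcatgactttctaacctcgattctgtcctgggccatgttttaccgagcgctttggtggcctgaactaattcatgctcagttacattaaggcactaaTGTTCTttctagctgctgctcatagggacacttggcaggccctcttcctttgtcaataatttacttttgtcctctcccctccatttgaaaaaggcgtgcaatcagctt
Slc3a1 (chr17:85028097-85028346, plus strand): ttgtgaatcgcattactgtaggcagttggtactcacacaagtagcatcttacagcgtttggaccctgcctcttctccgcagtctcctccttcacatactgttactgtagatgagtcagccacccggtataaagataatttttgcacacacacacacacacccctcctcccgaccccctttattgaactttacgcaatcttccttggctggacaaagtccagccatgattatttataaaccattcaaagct

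Both strands of each window were searched for the cAMP response element TGACGTCA, the C/EBP-ATF element TGATGNAA, the FoxO element GTAAACA, the partial glucocorticoid receptor element AGAACA and the E-box CACGTG. The downstream *Slc38a4* start had AGAACA on the opposite strand, read as TGTTCT, 108 bases before the start. *Slc43a1* had CACGTG 64 bases before its start at chr2:84840323. These were the only matches in the 13 windows, and the motifs occurred in 16.1% (AGAACA) and 6.02% (CACGTG) of all 32851 windows. TGACGTCA, TGATGNAA and GTAAACA were found in 1.55%, 3.45% and 3.17% of all windows and in no window of the transporters. GC content was 64.4% in the *Slc16a10* window, 45.6% in that of *Slc3a1*, and 52.8% and 47.2% in the upstream and downstream *Slc38a4* windows. The matches are letters only and say nothing on binding.

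In fed *Nts*+/+ livers, *Slc38a3* and *Slc38a4* were the most abundant of the 10 transcripts by length. Per kb of the canonical GENCODE transcript, *Slc38a3* had 256 ± 48.3 and *Slc38a4* 195 ± 21.6 TMM-normalized CPM per kb (mean ± SD, n = 3), and the lowest, *Slc43a2* and *Slc43a1*, had 3.45 and 2.02. Between them came *Slc7a2* at 28.5, *Slc3a2* at 20.0, *Slc16a10* at 17.1, *Slc38a2* at 16.6, *Slc3a1* at 12.8 and *Slc6a9* at 8.12, and neighbours among these overlapped over the 3 mice, whereas *Slc6a9* stood clear of *Slc43a2* and *Slc43a2* of *Slc43a1*. In fasted *Nts*+/+ livers *Slc38a4* came first at 301 CPM per kb, ahead of *Slc38a3* at 195, and *Slc7a2* stood clear of the others at 58.2. *Slc3a1* dropped below *Slc6a9* in that group, at 5.76 against 13.3 CPM per kb, with no overlap between mice. The order of the 2 leading genes was the same in mice labelled *Nts*-/-, with *Slc38a3* at 314 and *Slc38a4* at 214 in fed livers and 224 and 299 in fasted livers. The order of close genes holds for canonical lengths only (3564 bases for *Slc38a3*, 3955 for *Slc38a4*, 3289 for *Slc43a2*, 3089 for *Slc43a1*). Their longest annotated transcripts have 5671, 4231, 8304 and 3927 bases, and the transcripts in use were not determined.

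**Figure D1:**
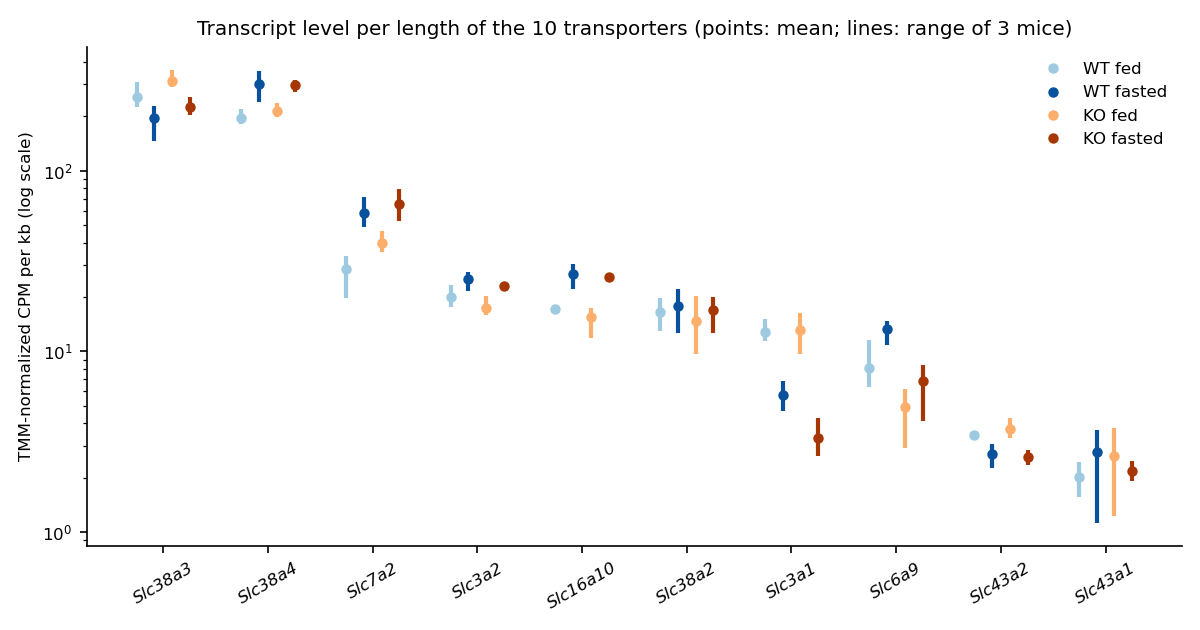
Transcript level of the 10 transporters per kb of transcript (TMM-normalized CPM per kb, log axis) in the 4 groups, where WT and KO are the labels *Nts*+/+ and *Nts*-/-, points are means and lines the range of 3 mice. *Slc38a3* and *Slc38a4* lie above all others, and *Slc38a4* passes *Slc38a3* in both fasted groups at the canonical transcript lengths.

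Fasting changed 4 of the 10 transcripts in *Nts*+/+ livers (edgeR quasi-likelihood test, Benjamini-Hochberg adjusted p under 0.05 over all genes tested), 3 upwards and 1 downwards. Over all genes tested, 18.1% passed this test, 8.91% upwards and 9.19% downwards. In mice labelled *Nts*-/-, 4 of 10 changed as well, 2 upwards and 2 downwards, beside 16.8% of all genes (7.70% upwards and 9.14% downwards). *Slc7a2*, *Slc16a10* and *Slc3a1* passed in both genotypes, 3 of 10 against 10.7% of all genes tested. *Slc38a4* passed in *Nts*+/+ and *Slc43a2* in *Nts*-/- only, although the difference in response between genotypes did not pass for either. The median log2 fold change over the 10 genes was 0.386 in *Nts*+/+ and 0.306 in *Nts*-/-, and over all genes tested -0.00318 and -0.0108. The sign was the same in both genotypes for 9 of 10 transporters and for 74.4% of all genes tested, *Slc43a1* being the exception.

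**Figure D2:**
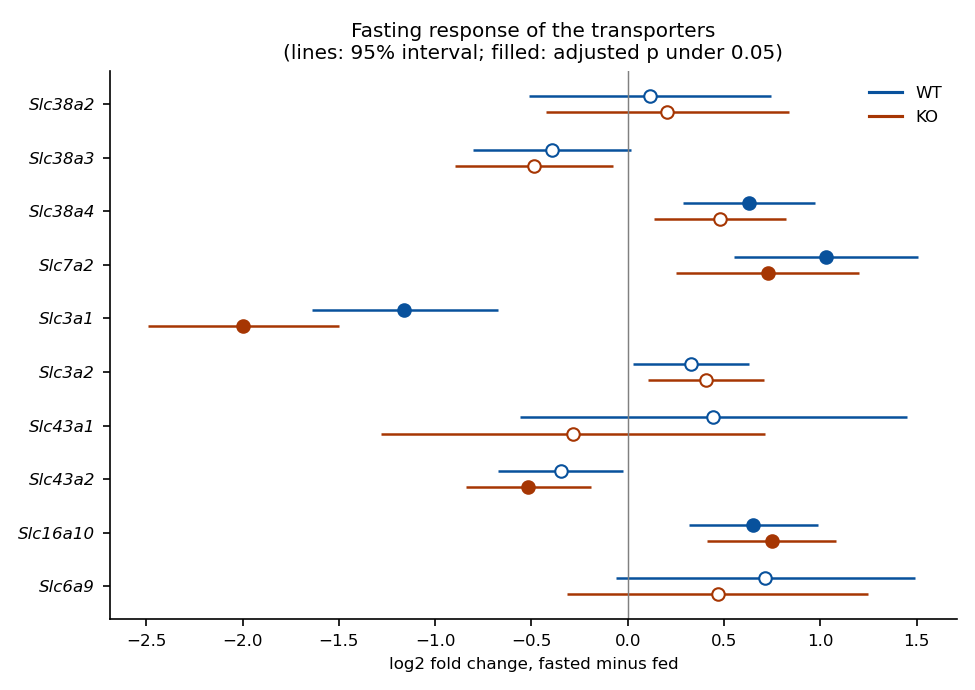
Log2 fold change of each transporter, fasted minus fed, in mice labelled *Nts*+/+ (WT) and *Nts*-/- (KO), with lines for the 95% interval and filled points for adjusted p under 0.05. *Slc7a2* and *Slc16a10* lie to the right of 0 and *Slc3a1* to the left with filled points in both genotypes.

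*Slc7a2*, the carrier of arginine and other cationic amino acids, rose with fasting. It had 267, 254 and 157 TMM-normalized CPM in fed and 427, 569 and 387 in fasted *Nts*+/+ livers, and the lowest fasted mouse was above the highest fed mouse. Mice labelled *Nts*-/- had 296, 280 and 368 when fed and 418, 629 and 515 when fasted, again without overlap. The log2 fold change was 1.03 (SE 0.22, adjusted p = 0.00688 in edgeR), or 2.04-fold, in *Nts*+/+ and 0.73 (SE 0.22, adjusted p = 0.0372), or 1.65-fold, in *Nts*-/-. The *Nts*-/- call depended on single mice: the adjusted p was 0.122 without fed mouse 277, 0.121 without fed mouse 303, 0.147 without fasted mouse 290 and 0.0786 without fasted mouse 295. *Arg1*, an arginase that splits arginine, also rose in both genotypes, with log2 fold changes of 0.92 (adjusted p = 0.0033) and 0.84 (adjusted p = 0.00568). Uptake of arginine was not measured.

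*Slc16a10*, the aromatic amino acid facilitator, rose by a similar amount in both genotypes. Its TMM-normalized CPM was 91.5, 92.9 and 99.0 in fed and 122, 168 and 156 in fasted *Nts*+/+ livers. In mice labelled *Nts*-/- it was 96.2, 94.0 and 65.8 when fed and 140, 140 and 150 when fasted. Fed and fasted mice did not overlap in either genotype, and the 3 fasted *Nts*-/- mice lay close together (143 ± 5.83, n = 3). Log2 fold changes were 0.65 (SE 0.16, adjusted p = 0.0116 in edgeR), or 1.57-fold, and 0.75 (SE 0.16, adjusted p = 0.00581), or 1.68-fold. In *Nts*+/+ the adjusted p was 0.0501 without fed mouse 254 and 0.0609 without fasted mouse 282. *Tdo2*, which opens the degradation of the aromatic amino acid tryptophan, rose by 1.16 (adjusted p = 0.00195) and 1.22 (adjusted p = 0.00132) on the log2 scale.

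Of the 2 abundant SLC38 transcripts, *Slc38a4* rose in *Nts*+/+ livers and *Slc38a3* did not pass in either genotype. *Slc38a4* had 869, 723 and 719 TMM-normalized CPM in fed and 1220, 1400 and 953 in fasted *Nts*+/+ livers, and 939, 789 and 815 against 1080, 1210 and 1260 in those labelled *Nts*-/-. All fasted mice were above all fed mice of their genotype. The log2 fold change was 0.63 (SE 0.16, adjusted p = 0.0154 in edgeR), or 1.55-fold, in *Nts*+/+, where the adjusted p was 0.0607 without fed mouse 257 and 0.0884 without fasted mouse 282. In *Nts*-/- it was 0.48 (SE 0.16, adjusted p = 0.0537), which passed with RLE factors (0.049) and with DESeq2 (0.0123).

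*Slc38a3* had 1110, 830 and 797 TMM-normalized CPM in fed and 812, 756 and 522 in fasted *Nts*+/+ livers, where the groups overlapped. In mice labelled *Nts*-/- it had 1040, 1290 and 1030 when fed and 728, 755 and 913 when fasted, without overlap. Neither difference passed, at -0.39 (SE 0.19, 95% interval -0.80 to 0.02, adjusted p = 0.174 in edgeR) and -0.49 (SE 0.19, 95% interval -0.90 to -0.08, adjusted p = 0.0971).

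The ratio of *Slc38a4* to *Slc38a3* counts within a mouse does not depend on how libraries are scaled. It was 0.78, 0.871 and 0.902 in fed and 1.51, 1.85 and 1.83 in fasted *Nts*+/+ livers. In mice labelled *Nts*-/- it was 0.905, 0.611 and 0.793 when fed and 1.48, 1.60 and 1.38 when fasted. All 6 fed mice were below 1 and all 6 fasted mice above 1, so that the balance between the System A and the System N transcript shifted from 0.851 ± 0.0634 to 1.73 ± 0.191 and from 0.77 ± 0.148 to 1.49 ± 0.11 (mean ± SD, n = 3 each). This ratio was chosen after its values were seen and was not tested.

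Of the heavy chains, *Slc3a1* fell with fasting in both genotypes and *Slc3a2* did not pass. *Slc3a1* had 81.4, 64.6 and 61.8 TMM-normalized CPM in fed and 37.1, 25.3 and 30.9 in fasted *Nts*+/+ livers. Mice labelled *Nts*-/- had 74.4, 52.0 and 87.9 when fed and 15.9, 14.3 and 23.2 when fasted. Every fasted mouse was below every fed mouse, and the 3 fasted *Nts*-/- mice were below the 3 fasted *Nts*+/+ mice. *Slc3a1* fell by 1.16 on the log2 scale (SE 0.22, adjusted p = 0.00405 in edgeR), or 2.23-fold, in *Nts*+/+ and by 2.00 (SE 0.23, adjusted p = 0.000135), or 3.99-fold, in *Nts*-/-. It passed in all fits that left out 1 mouse, from -1.29 to -1.03 and from -2.24 to -1.82.

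The *Slc3a1* counts carry a limit. The gene overlaps *Prepl* on GRCm38, with a mean of 681 counts for *Prepl* and 1344 for *Slc3a1*, and without a stated strand setting reads of the shared bases cannot be assigned with certainty. *Prepl*, a peptidase-like gene, had 24.8 ± 0.713 TMM-normalized CPM in fed and 23.4 ± 0.992 in fasted *Nts*+/+ livers, and 26.1 ± 1.92 and 20.1 ± 3.01 in those labelled *Nts*-/- (SD, n = 3). Its log2 fold change was -0.08 (adjusted p = 0.69 in edgeR) in *Nts*+/+ and -0.38 (adjusted p = 0.0487) in *Nts*-/-, smaller than that of *Slc3a1* in both.

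*Slc3a2*, the heavy chain of the ubiquitous L-type and related transporters, had 48.8, 59.7 and 45.1 TMM-normalized CPM in fed and 55.1, 70.4 and 67.3 in fasted *Nts*+/+ livers, with overlap. In mice labelled *Nts*-/- the values were 41.3, 40.5 and 51.8 when fed and 60.1, 60.1 and 56.9 when fasted, without overlap. The log2 fold changes of 0.33 (SE 0.14, adjusted p = 0.123 in edgeR) and 0.41 (SE 0.14, adjusted p = 0.0634) did not pass. The second passed with DESeq2 (0.0373) and without fed mouse 319 (0.0234). Counts of *Slc3a1* over *Slc3a2* within a mouse were 1.67, 1.08 and 1.37 in fed and 0.674, 0.359 and 0.459 in fasted *Nts*+/+ livers, and 1.80, 1.29 and 1.70 against 0.265, 0.239 and 0.408 in those labelled *Nts*-/-. *Slc3a1* counts exceeded those of *Slc3a2* in all 6 fed mice and were lower in all 6 fasted mice. Counts are not scaled by transcript length, which is 5401 bases for *Slc3a1* and 2555 for *Slc3a2* (canonical transcripts). Per kb, mean *Slc3a1* was below mean *Slc3a2* in fed livers too, at 12.8 and 20.0 in *Nts*+/+ and 13.2 and 17.4 in *Nts*-/-. The ratio of counts, too, was chosen after its values were seen and was not tested.

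**Figure D3:**
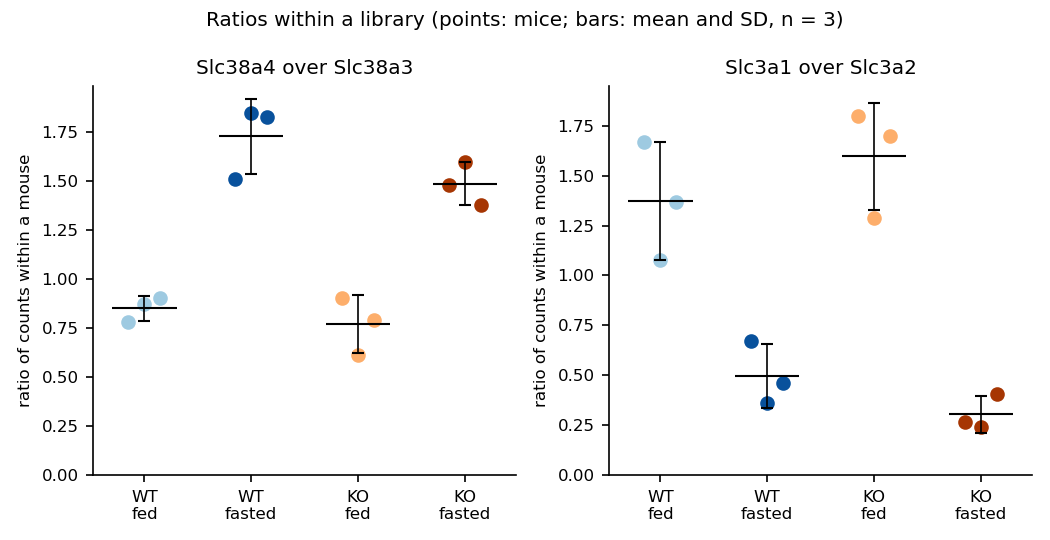
Ratio of counts within each mouse for *Slc38a4* over *Slc38a3* (left) and *Slc3a1* over *Slc3a2* (right), with points for mice and bars for mean and SD (n = 3), where WT and KO are the labels *Nts*+/+ and *Nts*-/-. Fed and fasted mice lie on opposite sides of 1 in both panels, for counts not scaled by transcript length.

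Light chains that pair with these heavy chains were scarce. *Slc7a9*, the known partner of *Slc3a1*, had 0 counts in 10 of 12 mice and at most 1 in the others, which allows up to 0.0663 to 0.136 CPM per mouse at a floor of 3 counts, and *Slc7a13* had 0 in all 12. Among partners of *Slc3a2*, *Slc7a5* had 45 to 139 counts, *Slc7a7* 41 to 115 and *Slc7a8* 81 to 283, whereas *Slc7a6* had 5 to 11 and *Slc7a10* and *Slc7a11* 0 to 3. *Slc7a7*, which exchanges cationic for neutral amino acids, fell with fasting in both genotypes, by 0.68 (adjusted p = 0.0413 in edgeR) and 0.72 (adjusted p = 0.0375) on the log2 scale. *Slc7a8*, an L-type light chain, fell in *Nts*+/+ by 0.67 (adjusted p = 0.0408) and had -0.61 in *Nts*-/- (adjusted p = 0.0588, interaction 0.05 with adjusted p = 0.984).

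*Slc43a2*, one of the branched-chain facilitators, was low. It had 11.7, 11.4 and 10.9 TMM-normalized CPM in fed and 9.25, 7.40 and 10.1 in fasted *Nts*+/+ livers, and 14.1, 10.9 and 11.8 against 7.74, 9.35 and 8.62 in those labelled *Nts*-/-. Fasted mice were below fed mice in both genotypes without overlap. It fell by 0.52 on the log2 scale (SE 0.15, adjusted p = 0.0313 in edgeR), or 1.43-fold, in *Nts*-/-, and the difference of -0.35 (SE 0.15, adjusted p = 0.128) in *Nts*+/+ did not pass. The *Nts*-/- call was lost without fed mouse 277 (0.145) and without fasted mice 284 (0.113), 290 (0.0526) or 295 (0.0759).

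*Slc43a1*, the related facilitator, varied widely, at 6.39, 4.82 and 7.54 TMM-normalized CPM in fed and 10.9, 11.3 and 3.47 in fasted *Nts*+/+ livers, and 9.07, 11.6 and 3.79 against 7.65, 5.93 and 6.57 in those labelled *Nts*-/-. The groups overlapped throughout, and the log2 fold changes of 0.45 (adjusted p = 0.543 in edgeR) and -0.28 (adjusted p = 0.716) had 95% intervals of -0.56 to 1.45 and -1.28 to 0.72. These intervals leave room for changes in either direction.

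*Slc38a2* did not pass in either genotype. It had 80.1, 92.2 and 60.6 TMM-normalized CPM in fed and 59.2, 88.6 and 104 in fasted *Nts*+/+ livers, and 66.5, 45.3 and 94.5 against 85.3, 58.8 and 93.7 in those labelled *Nts*-/-. Fed and fasted mice overlapped, with log2 fold changes of 0.12 (95% interval -0.51 to 0.75, adjusted p = 0.82 in edgeR) and 0.21 (95% interval -0.42 to 0.84, adjusted p = 0.674). *Slc38a2* is also a known target of ATF4, the transcription factor of the amino acid response. Of 19 tested genes on a list of ATF4 targets, 4 rose and 2 fell in *Nts*+/+ and 4 rose and 1 fell in *Nts*-/-, with median log2 fold changes of 0.122 and 0.245, beside 18.1% and 16.8% of all genes tested called in the 2 genotypes and medians of -0.00318 and -0.0108. *Trib3*, a pseudokinase gene, rose by 1.49 (adjusted p = 0.00557) and 1.72 (adjusted p = 0.00207) on the log2 scale. *Slc1a4*, an amino acid transporter on this list, fell by 1.47 (adjusted p = 0.00485) and 2.18 (adjusted p = 0.000415). *Nupr1*, a stress gene, was low, with means of 1.87 in fed and 0.515 in fasted *Nts*+/+ livers. It fell by 1.88 in *Nts*+/+ (adjusted p = 0.027) and had -0.44 in *Nts*-/- (adjusted p = 0.617, interaction 1.43 with adjusted p = 0.897).

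*Slc6a9*, the glycine transporter, had 22.2, 39.9 and 22.7 TMM-normalized CPM in fed and 51.2, 50.5 and 37.4 in fasted *Nts*+/+ livers, and 21.5, 10.1 and 19.7 against 27.7, 29.3 and 14.3 in those labelled *Nts*-/-. Fed and fasted mice overlapped in both genotypes, by 1 fasted mouse each. The log2 fold changes of 0.71 (SE 0.35, adjusted p = 0.188 in edgeR) and 0.47 (SE 0.35, adjusted p = 0.405) did not pass. *Gldc*, which cleaves glycine in mitochondria, rose in *Nts*+/+ by 0.68 (adjusted p = 0.029) on the log2 scale and had 0.41 in *Nts*-/- (adjusted p = 0.171). Other glycine genes went the other way without passing. *Amt* had -0.53 in *Nts*+/+ (adjusted p = 0.0881 in edgeR) and -0.50 in *Nts*-/- (adjusted p = 0.108), and *Shmt1* and *Shmt2* were also negative in both.

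**Figure D4:**
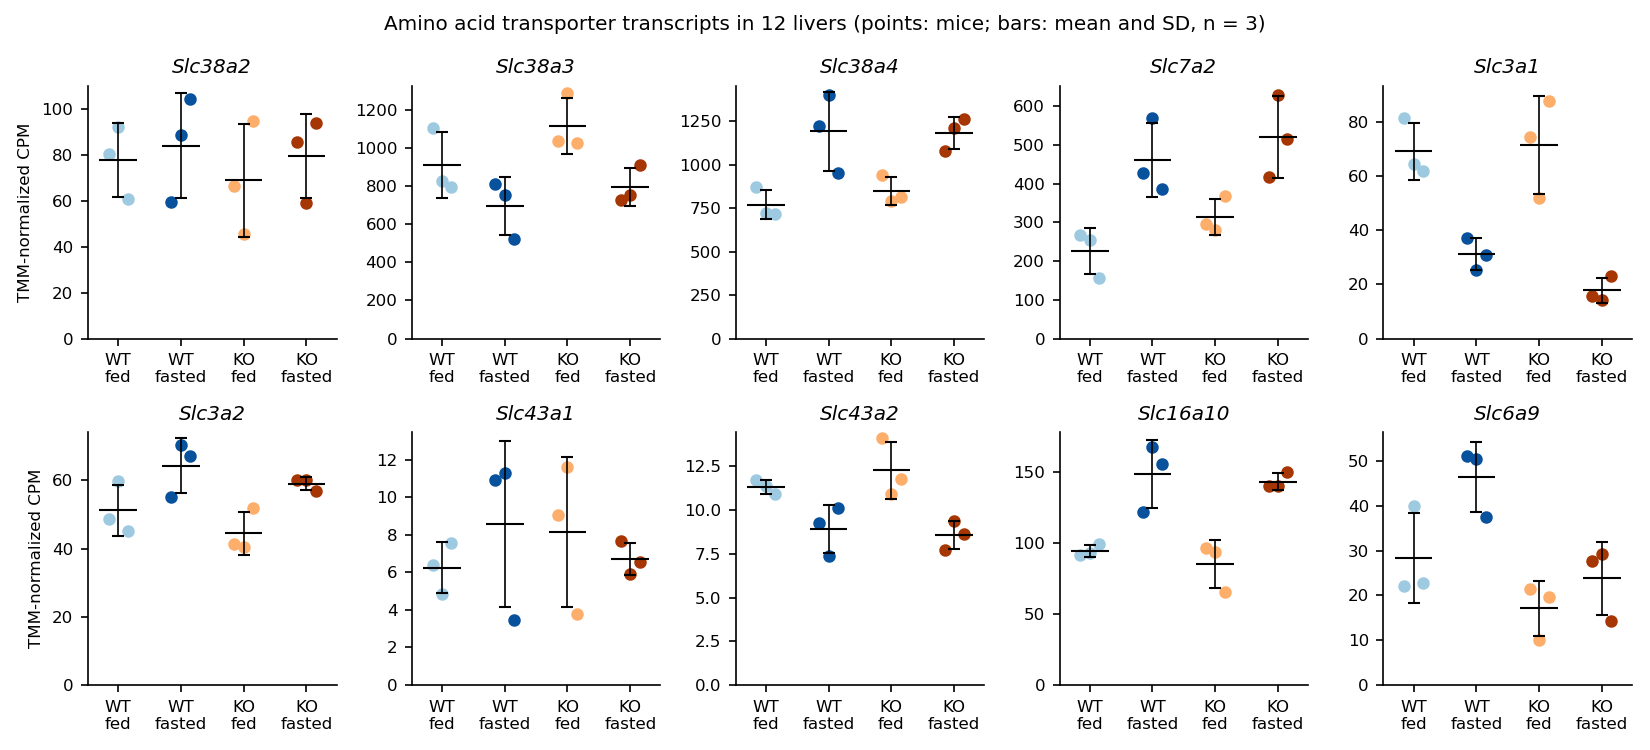
TMM-normalized CPM of each transporter in every mouse by group, where WT and KO are the labels *Nts*+/+ and *Nts*-/-, with points for mice and bars for mean and SD (n = 3). Fasted mice lie above fed mice without overlap for *Slc38a4*, *Slc7a2* and *Slc16a10* and below them for *Slc3a1* and *Slc43a2*, in both genotypes.

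Without overlap between fed and fasted mice were 5 of the 10 transcripts in *Nts*+/+ and 7 of 10 in *Nts*-/-, beside 36.0% and 35.2% of all genes tested. Among the transporters, the profiles over the 12 mice lay closest for *Slc38a4* and *Slc16a10*, with a root mean square difference of 0.246 between centred log2 levels. Outside the set, the nearest profile was that of *Ube4b* for *Slc38a4* (0.111), *Mettl1* for *Slc7a2* (0.214), *Bace1* for *Slc16a10* (0.122), *Ugt1a6a* for *Slc43a2* (0.0873) and *Cdh1* for *Slc3a1* (0.275). *Cdh1*, the epithelial cadherin, had log2 fold changes of -0.97 and -1.59 on fasting, and *Kyat1*, a kynurenine aminotransferase gene and the second nearest to *Slc3a1* (0.294), -1.33 and -1.71. These are descriptions of likeness over 12 mice and were not tested.

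Between the genotype labels, 0 of the 10 transporters passed in fed livers and 0 in fasted livers (edgeR quasi-likelihood test), as for all genes tested (0% in both). DESeq2 also called 0 of the 10. At an unadjusted p under 0.05 there were 1 of the 10 transporters in fed and 2 in fasted livers, beside 876 and 685 of all 13812 genes tested. In each feeding state 2 of the 10 did not overlap between genotypes, against 10.7% and 12.2% of all genes tested. The direction of each difference refers to labels that the *Nts* counts went against.

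*Slc6a9* was lower in all *Nts*-/- mice than in all *Nts*+/+ mice of the same feeding state. The difference was -0.73 on the log2 scale in fed livers (SE 0.35, 95% interval -1.51 to 0.06, adjusted p = 0.777 in edgeR) and -0.97 in fasted livers (SE 0.35, 95% interval -1.75 to -0.19, adjusted p = 0.917), or 1.65-fold and 1.96-fold lower. Averaged over both feeding states, a contrast added after these values were seen, it was -0.85 (SE 0.25, 95% interval -1.40 to -0.30, adjusted p = 0.76), and 0 of all genes tested passed there (0%). The unadjusted p of 0.0063 ranked 95 among 13812 genes.

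*Slc3a1* differed between genotypes in fed livers by 0.04 on the log2 scale (95% interval -0.43 to 0.52). In fasted livers it was lower in those labelled *Nts*-/- by 1.74-fold, at -0.80 (SE 0.23, 95% interval -1.28 to -0.31, adjusted p = 0.917 in edgeR), and its unadjusted p of 0.00362 ranked 33 among 13812 genes. *Slc7a2* was higher in fed *Nts*-/- livers in all 3 mice, by 0.48 (SE 0.22, 95% interval 0.01 to 0.95, adjusted p = 0.777), and in fasted livers the groups overlapped at 0.18 (95% interval -0.30 to 0.65). None of these differences passed. For the 7 other transporters the differences ranged from -0.20 to 0.39 in fed and from -0.34 to 0.20 in fasted livers, with overlap between the genotypes.

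**Figure D5:**
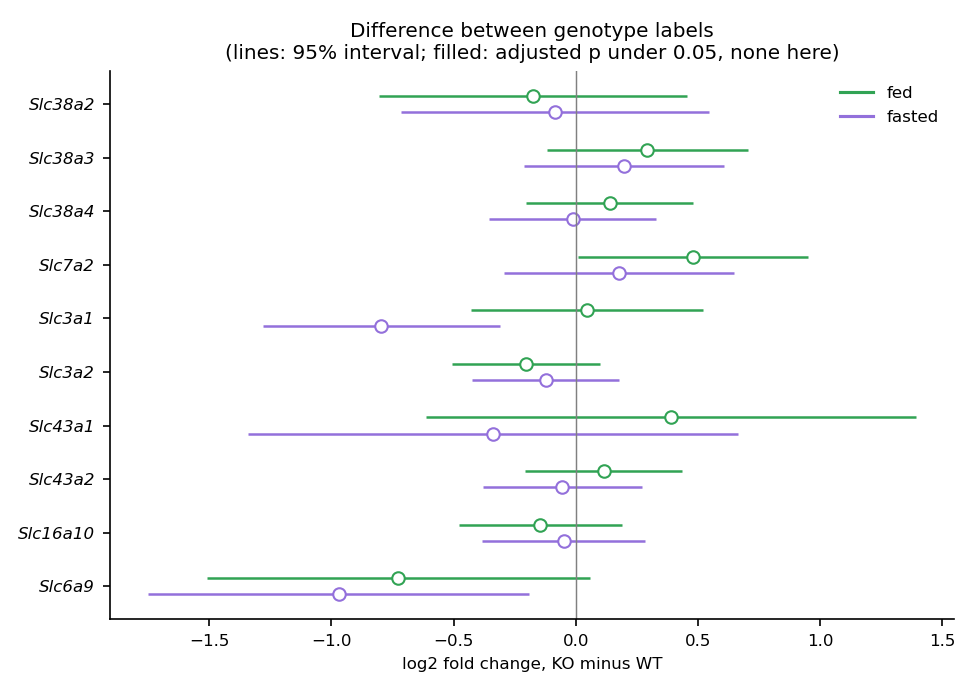
Log2 difference of each transporter between the labels *Nts*-/- (KO) and *Nts*+/+ (WT) in fed and in fasted livers, with lines for the 95% interval. Open points mark adjusted p above 0.05, which holds for all 20 differences, and the largest are those of *Slc6a9* in both feeding states and *Slc3a1* in fasted livers.

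The fasting response differed between genotypes for 0 of the 10 transporters and for 0% of all genes tested (edgeR, interaction term), and DESeq2 also called 0 of the 10. At an unadjusted p under 0.05 there were 1 of the 10 transporters and 663 of all 13812 genes tested. That transporter was *Slc3a1*, with an interaction of -0.84 on the log2 scale (SE 0.31, 95% interval -1.52 to -0.16, adjusted p = 0.897). *Slc7a2* had -0.30 (95% interval -0.97 to 0.36), *Slc38a4* -0.15 (-0.63 to 0.33), *Slc43a2* -0.17 (-0.63 to 0.29) and *Slc16a10* 0.10 (-0.38 to 0.57), intervals that leave room for responses that differ in either direction.

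Other genes of amino acid handling were read from lists. Of 35 further plasma membrane amino acid transporters, 12 were tested and 23 had too few counts. None rose and 4 fell in *Nts*+/+, and 1 rose and 4 fell in *Nts*-/-, with median log2 fold changes of -0.476 and -0.611, beside medians of -0.00318 and -0.0108 and shares called of 18.1% and 16.8% for all genes tested. *Slc1a4*, a carrier of alanine, serine and cysteine, fell by 1.47 (adjusted p = 0.00485 in edgeR) and 2.18 (adjusted p = 0.000415) on the log2 scale. *Slc6a13*, which carries GABA and taurine, fell by 0.50 (adjusted p = 0.0391) and 0.61 (adjusted p = 0.0162), and *Slc6a6*, the taurine transporter, fell in *Nts*-/- by 1.05 (adjusted p = 0.00436) and had -0.58 in *Nts*+/+ (adjusted p = 0.0664). The riser was *Slc1a2*, a glutamate transporter of pericentral hepatocytes that also stands on the pericentral marker list, at 0.98 in *Nts*-/- (adjusted p = 0.0051), against 0.28 in *Nts*+/+ (adjusted p = 0.361, interaction 0.71 with adjusted p = 0.897).

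Of 30 enzymes that use the carried amino acids, all tested, 5 rose and 0 fell in *Nts*+/+ and 5 rose and 3 fell in *Nts*-/-, with medians of 0.154 and 0.374. The share in *Nts*+/+ was below the 18.1% of all genes called there, and that in *Nts*-/- above the 16.8%. The aminotransferases *Gpt2* and *Got1* rose by 1.30 (adjusted p = 0.00463 in edgeR) and 1.25 (adjusted p = 0.00512) in *Nts*+/+ and by 0.93 (adjusted p = 0.0252) and 1.08 (adjusted p = 0.0111) in *Nts*-/-. In *Nts*-/-, *Gls2*, the liver glutaminase, fell by 0.82 (adjusted p = 0.0308) and *Glud1*, the glutamate dehydrogenase, by 0.50 (adjusted p = 0.0237), beside -0.46 (adjusted p = 0.201) and -0.34 (adjusted p = 0.101) in *Nts*+/+. Of 10 tested transporters of lysosomes and other internal membranes, 1 rose in *Nts*+/+ and 2 fell in *Nts*-/-, shares below and close to those of all genes. These were *Slc36a4* at 0.74 (adjusted p = 0.0283, and 0.32 with adjusted p = 0.331 in *Nts*-/-), and *Slc36a1* and *Mfsd12* at -0.93 (adjusted p = 0.00373) and -0.80 (adjusted p = 0.00557), which had -0.34 (adjusted p = 0.204) and -0.40 (adjusted p = 0.106) in *Nts*+/+. Of 20 tested genes of amino acid sensing by mTORC1, 1 rose and 1 fell in *Nts*+/+ and 3 fell in *Nts*-/-, below the shares of all genes in both. *Sesn2*, a leucine sensor, rose by 0.86 (adjusted p = 0.0383) in *Nts*+/+ and had 0.75 (adjusted p = 0.0706) in *Nts*-/-. *Sesn1*, its relative, fell by 0.75 (adjusted p = 0.00515) in *Nts*-/- and had -0.36 (adjusted p = 0.12) in *Nts*+/+. No gene of the 5 lists passed between genotypes or in the interaction.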

How the data were processed

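Total RNA of snap-frozen livers was extracted with a column kit and sequenced. The authors deposited 1 table of expected counts (estimated reads per gene, not scaled between mice) with GRCm38 positions. The submitters' processing notes name Trimmomatic, RSEM and GRCm38. The aligner and the strand setting are not given in the sources used here. The labels name 1 batch and separate mice.

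Expected counts were rounded (6592 genes had values that were not whole). In R 4.3.3, edgeR 4.0.16 filtered genes (filterByExpr), normalized with TMM and fitted 1 robust quasi-likelihood model with a mean per group over 12 mice. p-values were adjusted by Benjamini-Hochberg over 13812 genes, and adjusted p under 0.05 passed. The biological coefficient of variation was 0.202. Per-kb levels divide by GENCODE vM39 canonical transcripts (GRCm39 lengths).

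The transporters, the gene lists and the contrasts were chosen with earlier results of these data known. All 10 transporters are named. From each list up to 4 genes with the smallest p per contrast were eligible, and, for transporters that passed on fasting, the 2 nearest profiles. *Prepl*, light chains, *Gldc*, *Amt*, *Shmt1*, *Shmt2*, *Nupr1*, *Gls2* and *Gpt2* in *Nts*-/-, both ratios and the averaged genotype contrast were chosen after values were seen.

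Results were recomputed with other scaling (RLE, upper quartile), with DESeq2 1.42.0, unfiltered, with a minimum of 10 counts per mouse, in fits of the compared mice alone, at a threshold of 0.10, with a minimum size of 1 (log2), and with each mouse left out. The steps were tested on simulated data. Floors of 3 counts cover counting error only, and the 95% intervals of fold changes come from the fit.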

Additional observations from a re-analysis of the deposited data

How the results depend on the processing

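The number of transporters changed by fasting was 4 in each genotype. In *Nts*+/+ it was 2 when a log2 fold change of size 1 or more was also required, and 2 to 4 when 1 mouse was left out, with 2 without fasted mouse 282. In mice labelled *Nts*-/- it was 7 at adjusted p under 0.10, 1 with that size also required, and 2 to 5 when 1 mouse was left out, with 2 without fed mouse 277 or fasted mice 290 or 295. RLE factors gave 5, DESeq2 6, and no filter or only the mice compared 3 in *Nts*-/-. Shares of all genes passing under these alternatives are not given here. A higher or lower count of transporters therefore cannot be told apart from more or fewer calls among all genes. The genotype comparisons and the interaction stayed at 0 under every alternative run. The averaged genotype contrast, added after the values were seen, also called 0 transporters in the main fit. No paired analysis was possible because the mouse numbers differ in every group.

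Directions turned only for differences that had not passed. The *Slc38a4* difference between genotypes in fasted livers became 0.00125 with at least 10 counts in every mouse, and ranged from -0.151 to 0.127 when 1 mouse was left out. Ranges that crossed 0 when 1 mouse was left out were, on the log2 scale, as follows. For *Slc38a2* they were -0.0688 to 0.325 and -0.0138 to 0.505 for fasting in *Nts*+/+ and *Nts*-/-, -0.473 to 0.051 and -0.288 to 0.101 for genotype in fed and fasted livers, and -0.129 to 0.388 for the interaction. For the interaction they were -0.0464 to 0.20 (*Slc3a2*), -0.266 to 0.0291 (*Slc38a3*), -0.0613 to 0.207 (*Slc16a10*) and -0.578 to 0.028 (*Slc6a9*). For genotype in fed livers they were -0.131 to 0.226 (*Slc3a1*) and -0.238 to 0.0106 (*Slc16a10*), and in fasted livers -0.181 to 0.0561 (*Slc16a10*) and -0.167 to 0.0457 (*Slc43a2*). For *Slc43a1* the range for fasting in *Nts*-/- was -0.618 to 0.0611. The causes were not tested. Scaling moved the median of all genes to at most -0.0437.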
